A study of Salmo salar with 72 samples.

Results

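The comparison set the response of Atlantic salmon (Salmo salar) primary hepatocytes to arsenite (AsIII) against their response to arsenate (AsV) at the same nominal dose of 10 µM and the same exposure of 48 h. For each gene, the change of the AsIII-exposed culture from its AsIII control and the change of the AsV-exposed culture from its AsV control were taken within each of 3 fish, and the second change was subtracted from the first. A positive difference therefore means a higher response to AsIII. All 25830 genes of the deposited table entered, and 25690 of them passed a minimum value of 10 in at least 3 of the 12 libraries and were tested.

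The 4 groups were AsIII 10 µM, AsIII control, AsV 10 µM and AsV control, with 1 library from each of fish 1, 2 and 3 in every group, out of 72 libraries in 14 groups in the series. All cells came from livers of male fish, were freed with collagenase and were grown on laminin-coated porous scaffolds before exposure, and each compound had its own plates and its own control. Cells were cultured in medium with serum and antibiotics in all groups, and the scaffold cultures hold whatever other liver cells passed the washing steps. Compound and dose are those of the sample titles, since other label text names other compounds and dose ranges for some of these samples.

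Arsenite and arsenate are the trivalent and pentavalent inorganic forms of arsenic. Arsenite is taken up in mammals through aquaglyceroporins such as aquaporin 9 and binds thiol groups of proteins and glutathione, and it is a classical inducer of heat shock genes. Arsenate resembles phosphate, enters through phosphate transporters, can replace phosphate in energy metabolism, and is reduced in cells to arsenite, which the enzyme AS3MT methylates with S-adenosylmethionine.

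Read depth was 33496768 to 48325317 reads per library. The 60 hepatocyte products took 19.7 to 21.2% of the normalized total in AsIII libraries, against 21.9 to 22.3% in their controls, and 21.6 to 22.9% in AsV libraries, against 22 to 23.1% in theirs. Marker lists of erythroid, leukocyte, endothelial, biliary and stellate cells (41 genes) each summed to at most 0.00612% in any of the 12 libraries, and the labelled cell type fitted its markers. In cultures of this kind, fewer cells of a type and less RNA per cell cannot be told apart. The AsV 10 µM library of fish 3 stood apart, with 1729 genes listed at 0 against 132 to 301 in the other 11 libraries. 1118 tested genes were at 0 in that library alone, with a median of 18.3 normalized reads over the other 11. The count over all genes and those of some lists are therefore given with and without it below.

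The responses to the compounds differed at many genes, and the AsIII changes were the larger ones. With adjusted p under 0.05, limma called 6210 genes (24.2% of those tested), of which 3643 (14.2%) responded higher and 2567 (9.99%) lower to AsIII. Without the AsV library of fish 3 the call covered 6350 genes, 3788 higher and 2562 lower, and 3303 of the higher and 2139 of the lower genes kept their call and direction. Among the 6210 genes, the median size of the AsIII change was 1.07 on the log2 scale and that of the AsV change 0.15. The changes of AsIII and AsV did not overlap between fish, in either direction, at 10603 genes (41.3%).

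The separate comparisons showed the same imbalance. AsIII 10 µM against its own control gave 9999 called genes (38.9%), 5451 higher and 4548 lower, and AsIII-exposed against AsV-exposed cultures directly gave 10849 (42.2%). AsV 10 µM against its own control gave 0 calls with limma (0%), with 1185 genes at an unadjusted p under 0.05, 0 calls with edgeR and 19 with DESeq2, which gave no adjusted p for 14444 genes. AsIII control against AsV control also gave 0 limma, edgeR and DESeq2 calls (0%), with 557 genes at an unadjusted limma p under 0.05. Across the 25690 genes, the change of single fish correlated at r = 0.71 to 0.73 between fish for AsIII and at r = -0.10 to 0.04 for AsV, and the mean AsIII and AsV changes at r = -0.08, as a description with no test, since the changes share fish and the genes are not independent.

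**Figure D1:**
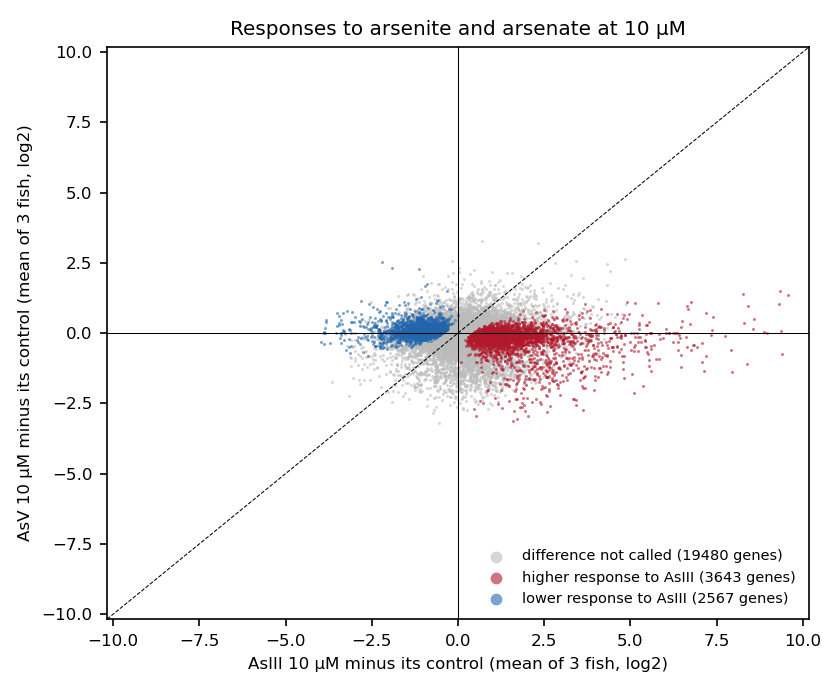
Mean log2 change of each of the 25690 tested genes, AsIII 10 µM minus its control on the horizontal axis and AsV 10 µM minus its control on the vertical axis. Points are genes, red where the response was called higher and blue where it was called lower for AsIII, and the dashed line marks equal responses. Called genes spread along the horizontal axis, to beyond 9 on the log2 scale, and lie mostly near 0 on the vertical one, with a tail of red points below it.

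Scaling changed the balance of the calls. Dividing by the library total in place of the authors' size factors moved the median difference of all genes by -0.30 on the log2 scale, to -0.21 from 0.09, and then 2212 genes were called higher and 5204 lower, so that 29.8% of calls were higher in place of 58.7%. The AsIII libraries had normalized totals of 44800400 to 46944100, against 35973000 to 38656100 in their controls, while AsV libraries had 33483000 to 37999300, against 34853000 to 38267700 in theirs. All 2567 lower calls and 2211 of the 3643 higher ones also held under total scaling. The sign of differences of less than 0.3 on the log2 scale, and the direction of lists with medians that small, thus rest on the scaling. Larger differences could lose their call too. The smallest called difference was 0.39 in size, so every higher call lost under total scaling was larger than 0.3.

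Heat shock proteins and factors formed the group with the widest gap. Of the 57 members, all in the test, 44 responded higher to AsIII and 0 lower (35 and 0 without the fish term). The higher calls were 77.2% of the list, against 14.2% of all genes. The median difference was 4.84 against 0.09 over all genes. In AsIII cultures the list rose at 45 genes and fell at 2, and in AsV cultures it rose and fell at 0. The median change of its members was 4.04, 4.80 and 5.70 in the AsIII cultures of fish 1, 2 and 3, and 0.27, -0.09 and 0 in their AsV cultures. The 9 inducible heat shock 70 kDa copies, chaperones that refold damaged proteins, and the 13 copies of heat shock protein 30, a small heat shock protein, were called higher in each case, with differences of 6.18 to 9.29 and 5.15 to 10.13. Heat shock factors 1 and 2 and the heat shock 70 kDa protein 14 copies, 6 genes in all, were not called. Reads can be split among similar copies, so the level of a single copy is uncertain.

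One of the 70 kDa copies, LOC106607232, had normalized read counts of 4916, 3166 and 3073 in the AsIII cultures of fish 1, 2 and 3, against 60.4, 36.5 and 7.42 in their controls. In AsV cultures it had 30.3, 10.4 and 1.89, against 44.3, 22.6 and 7.46 in controls. The 3 AsIII cultures lay above every other library, and the difference of responses was 8.12 ± 0.59 (adjusted p = 2.5e-08). Another copy, LOC106572869, had 14131, 8513 and 9457 in AsIII cultures, against 102.6, 36.5 and 0 in controls, and 88.6, 31.3 and 0 in AsV cultures, against 87.9, 26.1 and 0. Fish 3 had 0 reads of that copy in all but the AsIII culture, and the call of its difference of 9.29 ± 1.75 was lost without fish 2 (adjusted p = 0.0748) and without the fish term (0.107).

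Among the small heat shock proteins, LOC106568145 (heat shock protein 30-like) had 2643, 2224 and 2878 in AsIII cultures, against 1.92, 3.65 and 3.18 in controls, and 13, 1.74 and 0 in AsV cultures, against 2.38, 10.4 and 3.73 in controls. Its difference of 10.13 ± 1.05 (adjusted p = 2.3e-06) was the highest among the named genes. Heat shock protein beta-11-like LOC106563467 had 3229, 2467 and 3074 in AsIII cultures, against 38.4, 4.57 and 2.12, and 101.6, 0 and 0 in AsV cultures, against 15.8, 12.2 and 3.73; its difference was 9.48 ± 1.61, and its call was lost without fish 2 (adjusted p = 0.0641) or fish 3 (0.096). The heat shock 30-like copy LOC106599622 averaged 769.9 normalized reads in AsIII cultures and was at 0 in all 3 of their controls, which makes it at least 262.4-fold higher against a floor of 3 reads per library. That fold holds for the AsIII controls only. In AsV cultures LOC106599622 had 17.3, 6.96 and 28.3, against 4.75, 3.48 and 9.32 in their controls. Its difference of responses was 8.24 ± 0.81, and AsIII-exposed against AsV-exposed cultures directly gave 5.56. The 3 copies named heat shock cognate 70 kDa protein were also called, with differences of 2.37 to 3.56. The constitutive cytosolic chaperone hspa8 averaged 186600 normalized reads in AsIII cultures and 161900 in their controls, with a difference of 0.22 ± 0.14 (95% interval -0.08 to 0.52, adjusted p = 0.29). Of the 2 genes named heat shock cognate 71 kDa protein, 1 was called higher, with differences of 0.22 to 1.30. The cytosolic chaperone hsp90ab1 showed a difference of 0.55 ± 0.14 (adjusted p = 0.0075). The 2 genes named HSP 90-alpha and the 2 named HSP 90-alpha 1 were all called higher. Their differences were 5.73 to 6.61 and 3.68 to 4.85.

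The co-chaperones behaved unevenly, which the list median of 0.07 (total scaling: -0.23) does not show. Of 130 DnaJ, BAG and chaperonin genes, 36 responded higher and 13 lower, against 29 and 33 under total scaling. In the main fit that was 27.7% higher and 10% lower, against 14.2% and 9.99% of all genes. The co-chaperone bag3, which links heat shock 70 kDa proteins to autophagy, had 110956, 83141 and 103482 in AsIII cultures, against 1041, 649.5 and 311 in controls, and 1420.3, 421 and 326 in AsV cultures, against 772, 542 and 359.8; the difference was 7.24 ± 0.50 (adjusted p = 2.4e-05). DnaJ B1-like LOC106564265, a partner of the 70 kDa proteins, had 112234, 109237 and 104822 in AsIII cultures, against 4943, 2917 and 666, and 4153, 1673 and 341 in AsV cultures, against 3788, 2598 and 574; the difference was 6.09 ± 0.88 (adjusted p = 0.0039, 0.0906 without fish 2). In the other direction, the mitochondrial DnaJ A3-like LOC106606498 had 322, 426 and 524 in AsIII cultures, against 601, 859.7 and 849, and 693, 887 and 796 in AsV cultures, against 624, 911 and 709, a difference of -0.96 ± 0.20. BAG2-like LOC106612807 was higher by 3.78 ± 0.38, with an AsIII change of 4.89 ± 0.27 and an AsV change of 1.11 ± 0.27 that DESeq2 called and limma did not.

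**Figure D2:**
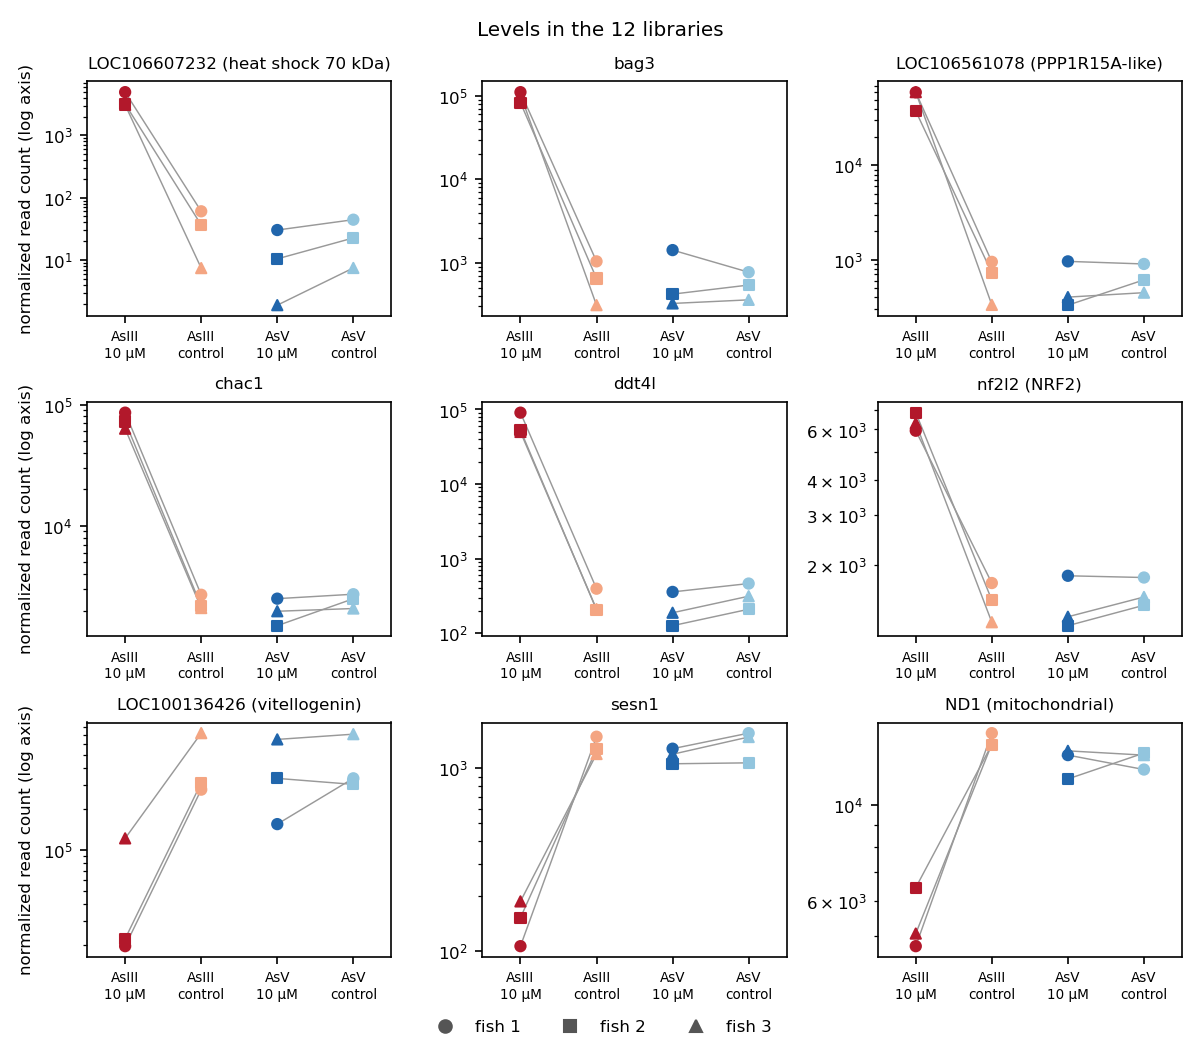
Normalized read counts on a log axis of 9 genes in the 12 libraries, in the order AsIII 10 µM, AsIII control, AsV 10 µM and AsV control, with 1 point per fish and lines joining the 2 cultures of a fish. The AsIII cultures stand above or below the other libraries at every gene shown, while the AsV cultures lie within or near the range of the controls.

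The integrated stress response and the unfolded protein response, which slow translation and raise amino acid and folding genes under stress, also held many genes that responded higher to AsIII. Of 98 members, 43 were called higher and 3 lower (32 and 10 under total scaling), with a median difference of 0.63 against 0.09 over all genes. In the main fit 43.9% of the list were higher and 3.06% lower, against 14.2% and 9.99% of all genes. The glutathione-degrading enzyme chac1 had 85755, 72553 and 63218 in the AsIII cultures of fish 1, 2 and 3, against 2709, 2188 and 2105 in their controls. In AsV cultures chac1 had 2516, 1507 and 1981, against 2738, 2513 and 2087. The AsV change was -0.31 ± 0.12 (unadjusted p = 0.022, not called) and the AsIII change 4.98 ± 0.12, so that the difference was 5.29 ± 0.18 (adjusted p = 1.4e-12).

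The PPP1R15A-like gene LOC106561078, whose product in mammals helps restart translation, had 59622, 37688 and 59845 in AsIII cultures, against 949.7, 728 and 332, and 961, 329.9 and 402 in AsV cultures, against 902, 612 and 447, a difference of 6.70 ± 0.46. The ATF3-like gene LOC106607825, a stress-induced transcription factor, differed by 4.40 ± 0.29 and the DDIT3-like gene LOC106582666, a mediator of stress-linked cell death, by 3.61 ± 0.20. Their AsIII changes were 4.06 ± 0.21 and 3.27 ± 0.14, while their AsV changes of -0.34 ± 0.21 and -0.34 ± 0.14 were not called. LOC106583939, nuclear protein 1-like, was lower: it averaged 23220 in AsIII cultures and 37320 in their controls, with a difference of -0.55 ± 0.15 (adjusted p = 0.013). That call was lost without fish 1 (0.0647), without fish 3 (0.167), without the fish term (0.206) and with all doses in the fit (0.217). The endoplasmic reticulum chaperone grp78 differed by 1.16 ± 0.19 (adjusted p = 0.00027) and asns, asparagine synthetase, by 0.26 ± 0.16 (95% interval -0.07 to 0.60, adjusted p = 0.25).

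Amino acid transport showed the same pattern in its leading members and a mixed list. 18 of 64 transporters were called higher and 11 lower, with a median of 0.38 (13 and 14 under total scaling). In the main fit that was 28.1% and 17.2% of the list, against 14.2% and 9.99% of all genes. The glutamine transporter slc1a5 had 23944, 10666 and 9827 in AsIII cultures, against 829, 432 and 366, and 665, 368 and 411 in AsV cultures, against 778, 479.8 and 325, a difference of 4.83 ± 0.20. The heavy chain slc3a2, which pairs with several light chains, had 10643, 8099 and 6899, against 458, 382 and 377, and 427, 312 and 265 in AsV cultures, against 486, 409 and 325, a difference of 4.67 ± 0.17. The excitatory amino acid transporter 3-like LOC106608636 was lower, with a difference of -2.03 ± 0.48, a call lost without fish 2 (adjusted p = 0.0641), without the fish term (0.0539) and with all doses in the fit (0.218). Of 39 cytosolic aminoacyl-tRNA synthetase genes, which charge tRNAs, 15 were called higher and 1 lower (median 0.37). That was 38.5% and 2.56% of the list, against 14.2% and 9.99% of all genes. Under total scaling the counts were 9 and 4 (median 0.07), and without the fish term 5 and 0. The cysteinyl enzyme sycc was among the highest, at 1.68 ± 0.17, and a lysyl copy, LOC100380865, differed by -0.60 ± 0.16, a call lost without fish 1 (adjusted p = 0.103), without the fish term (0.0827) and with all doses in the fit (0.099).

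p53 and cell death genes leaned toward higher AsIII responses. Of 82 members, 33 were called higher and 8 lower, with a median of 0.77 (26 and 11 under total scaling). Shares in the main fit were 40.2% higher and 9.76% lower, against 14.2% and 9.99% of all genes. The DDIT4-like gene ddt4l, an inhibitor of mTOR signalling, had 90694, 52901 and 49975 in AsIII cultures, against 395, 206 and 210.0, and 358, 126.2 and 188.02 in AsV cultures, against 463, 209 and 313. The difference was 8.52 ± 0.21 (adjusted p = 1.2e-14), and its AsV change of -0.61 ± 0.15 was negative in all 3 fish and was called with DESeq2 but not with limma, edgeR or library weights. A second DDIT4-like gene, LOC106577395, had 6576, 2811 and 2906 in AsIII cultures, against 108.4, 109.6 and 50.9, and 127.5, 60.9 and 31.2 in AsV cultures, against 117.99, 91.3 and 63.4. The DDIT4-like copies LOC106592479 and LOC106612111 were also higher, by 2.19 ± 0.37 and 5.08 ± 0.54, while LOC106577211 was lower (-1.93 ± 0.30) and ddit4l was not called (-1.01 ± 0.41, adjusted p = 0.08). Sestrins, another family of stress-responsive mTOR inhibitors, also went both ways. Sestrin 1 (sesn1) had 106.5, 152.5 and 187.2 in AsIII cultures, against 1491, 1273 and 1199, and 1282, 1060.1 and 1195 in AsV cultures, against 1559, 1073 and 1485; the difference was -2.97 ± 0.26 (adjusted p = 3.2e-07). A second sestrin 1 copy, LOC106571802, was lower too (-2.64 ± 0.49), the sestrin 3-like copies LOC106611768 and LOC106604703 were higher, by 2.63 ± 0.25 and 1.86 ± 0.23, and LOC106603373 was not called (2.49 ± 1.20). The cyclin-dependent kinase inhibitor 1-like copies LOC106609234 and LOC106576064, which halt the cell cycle, differed by 3.15 ± 0.25 and 3.13 ± 0.25.

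Ubiquitin, proteasome and autophagy genes gave calls in both directions. The polyubiquitin gene ubc had 21519, 22017 and 25241 in AsIII cultures, against 1535, 1987 and 1373, and 1832, 1474 and 1717 in AsV cultures, against 1519, 1944 and 1696, a difference of 3.86 ± 0.20, and ubb differed by 2.87 ± 0.20. The autophagy receptor sqstm1 had 449981, 350809 and 358937 in AsIII cultures, against 62946, 58300.3 and 38775, and 82234, 27321 and 36097 in AsV cultures, against 60421, 47229 and 47804, a difference of 3.13 ± 0.32; its product name in the deposited table is uncharacterized, and a second copy, sqstm, differed by 2.34 ± 0.21. The proteasome and ubiquitin list of 118 genes had 8 called higher and 30 lower (median -0.34). That was 6.78% and 25.4% of the list, against 14.2% and 9.99% of all genes. The counts depended on the setting, at 3 and 66 under total scaling (median -0.64), 8 and 14 without the AsV library of fish 3, and 3 and 8 without the fish term. The autophagy list of 73 had 22 higher and 3 lower (12 and 8 under total scaling), led by the vacuole membrane protein 1-like LOC106603519 at 3.12 ± 0.20. In the main fit 30.1% of the list were higher and 4.11% lower, against 14.2% and 9.99% of all genes. The list median of 0.25 is not past the scaling shift (-0.05 under total scaling).

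The redox list was not a uniform block. Of 80 tested genes of redox defence, many of them targets in mammals of the transcription factor NRF2, 15 were called higher and 8 lower for AsIII, against 11 and 20 under total scaling, and the median of 0.09 equals that of all genes. The calls of the main fit were 18.8% and 10% of the list, against 14.2% and 9.99% of all genes. The NRF2 gene nf2l2 itself had 5939, 6876 and 6309 in AsIII cultures, against 1729.6, 1506 and 1259, and 1834, 1225 and 1316 in AsV cultures, against 1809, 1445 and 1545, a difference of 2.25 ± 0.19. Its small-Maf partner, MafK-like LOC106601120, differed by 3.21 ± 0.35, and NRF1-like LOC106607482 by 2.88 ± 0.23. These were the highest copies. Of 3 NRF2 genes, 2 were called higher and 0 lower (0.02 to 2.25). Of 6 NRF1 genes, 3 were called higher and 1 lower (-0.84 to 2.88), and both MafK genes were called higher (2.75 to 3.21). The cystine/glutamate exchanger-like LOC106604686 had 701, 473 and 616 in AsIII cultures, against 202, 110.5 and 155.9, and 213, 95.7 and 150.2 in AsV cultures, against 138.6, 119.95 and 146.4, a difference of 1.84 ± 0.29. A heme oxygenase-like gene, LOC106590330, differed by 1.26 ± 0.35, a call lost without fish 1 (adjusted p = 0.0834), without fish 2 (0.0785), without the fish term (0.219) and with all doses in the fit (0.288). The other of 2 genes named heme oxygenase was not called (0.33). Of 3 genes named heme oxygenase 2, 2 were called lower and 0 higher (-0.84 to -0.40).

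Glutathione enzymes held genes with similar estimates for both compounds. Of 45 genes, 5 were called higher and 6 lower (median 0.03), against 3 and 14 under total scaling. Without the AsV library of fish 3 the counts were 7 and 4. The main calls were 11.1% and 13.3% of the list, against 14.2% and 9.99% of all genes. Glutathione reductase (gsr), which regenerates reduced glutathione, had 19909, 18830.1 and 14335 in the AsIII cultures of fish 1, 2 and 3, against 12196, 9863 and 9088 in their controls, and 31329.6, 13283 and 16657 in AsV cultures, against 12080.1, 9069 and 9873. Its AsIII change was 0.77 ± 0.16 (adjusted p = 0.0015) and its AsV change 0.89 ± 0.16 (limma adjusted p = 0.36; past the threshold with DESeq2 and with library weights), and the difference was -0.13 ± 0.23 (95% interval -0.61 to 0.36). The catalytic subunit of glutamate-cysteine ligase, gsh1, had 4038, 4319 and 3934 in AsIII cultures, against 2840.5, 2325 and 2897, and 5121, 2530.1 and 3995 in AsV cultures, against 2989, 2425 and 2688, and a difference of 0.14 ± 0.22 (-0.31 to 0.60). The regulatory subunit gene gsh0 was called higher, at 1.00 ± 0.20 (adjusted p = 0.0013). Each subunit had 2 tested genes, of which 1 was called higher. Differences were 0.14 to 1.01 for the catalytic and 0.09 to 1.00 for the regulatory subunit genes. Microsomal glutathione S-transferase 1-like copies were lower for AsIII at 3 of 3 tested, led by LOC106575061 at -1.73 ± 0.35, a call that was lost with all doses in the fit (adjusted p = 0.0527).

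**Figure D3:**
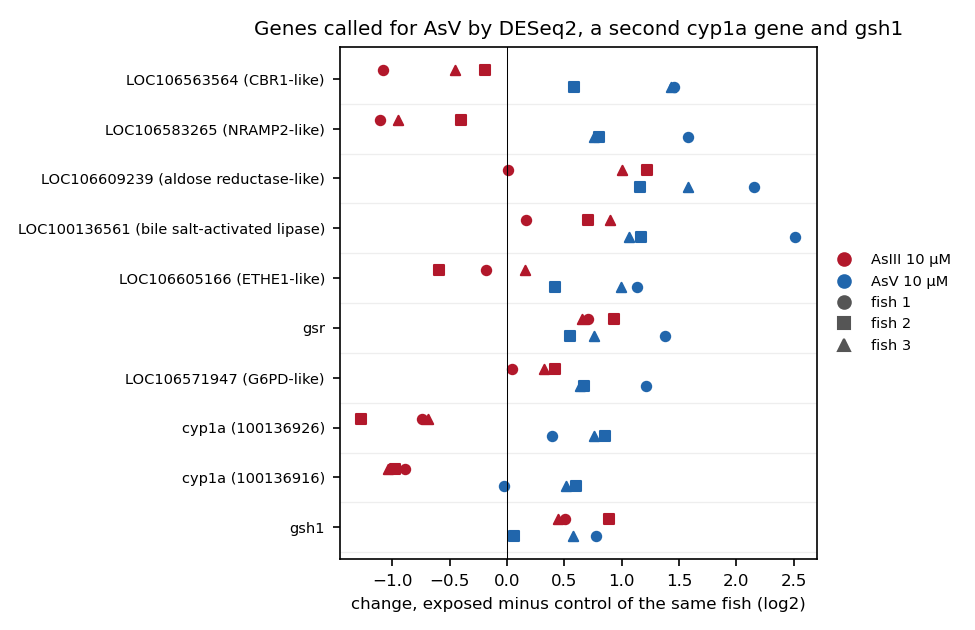
Log2 change from the control of the same fish for 8 genes that DESeq2 called for AsV, the second cyp1a gene and gsh1, AsIII in red above AsV in blue, with 1 point per fish. At the carbonyl reductase 1-like, NRAMP2-like, ETHE1-like and both cyp1a genes the red points lie below the blue ones, while for gsr and gsh1 they overlap.

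No AsV change passed the limma threshold, so the genes given next were chosen after their values were seen, from those with the lowest p-values and those called by DESeq2 or with library weights. The difference of responses subtracts the AsV change, so choosing genes with a raised AsV change by itself moves their difference down. The differences and adjusted p-values of genes chosen in this way are therefore a description and no separate evidence of a lower response to AsIII. DESeq2 called 19 genes for AsV, 18 higher and 1 lower, with limma changes of -0.61 to 1.63 and limma adjusted p of 0.36 to 0.72. Of these, AsIII changed 7 upward and 3 downward, and the difference of responses was called lower for AsIII at 6 and higher at 2. Among all tested genes, AsIII was called higher at 21.2% and lower at 17.7%. The difference was called higher at 14.2% and lower at 9.99% of all genes. Carbonyl reductase 1-like LOC106563564, an NADPH-dependent enzyme that reduces carbonyls, had 249, 306 and 259 in AsIII cultures, against 529.5, 351 and 354, and 1388, 507 and 803 in AsV cultures, against 504, 337 and 297. The AsV cultures were above their controls in all 3 fish and the AsIII cultures below theirs, with a difference of -1.73 ± 0.32 (adjusted p = 0.0011, 0.0527 with all doses in the fit). Of 4 carbonyl reductase 1 genes, 2 were called lower and 0 higher (-1.73 to -0.08), with AsV changes of 0.29 to 1.16.

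The NRAMP2-like metal transporter LOC106583265 had 3999.7, 4139 and 3214 in AsIII cultures, against 8637, 5481 and 6209. In AsV cultures it had 27761, 10378 and 11377, against 9309, 5960.2 and 6731, and its difference was -1.87 ± 0.28. Of 3 NRAMP2 genes, 1 was called lower and 0 higher (-1.87 to 0.21), with AsV changes of -0.64 to 1.04. The persulfide dioxygenase ETHE1-like LOC106605166, a mitochondrial enzyme of sulfide oxidation, had 685, 386 and 642 in AsIII cultures, against 777, 581.9 and 576, and 1909, 682 and 1152 in AsV cultures, against 871, 510.2 and 579. Its difference of -1.05 ± 0.24 lost its call without fish 1 (adjusted p = 0.0679), without the fish term (0.165) and with all doses in the fit (0.133). A second ETHE1-like copy, LOC106582613, had changes of 1.10 ± 0.16 for AsIII and 0.73 ± 0.16 for AsV and an uncalled difference of 0.37 ± 0.23 (-0.11 to 0.85). Glucose-6-phosphate dehydrogenase-like LOC106571947, the entry enzyme of the pentose phosphate pathway, had 2272, 2058 and 1961 in AsIII cultures, against 2209, 1539 and 1572, and 5123, 2330.0 and 2371 in AsV cultures, against 2215, 1463 and 1525. Its difference of -0.58 ± 0.21 was not called (adjusted p = 0.053) and was called under 7 alternatives, among them edgeR (0.0352), DESeq2 (0.0294) and the fit without the AsV library of fish 3 (0.0231). Of 3 glucose-6-phosphate dehydrogenase genes, 0 were called in the main fit. Their differences were -0.58 to 1.125 and their AsV changes -0.03 to 0.84. The aldose reductase-like LOC106609239 had 13293, 19172 and 13584 in AsIII cultures, against 13239, 8234 and 6794. In AsV cultures it had 46964, 16182 and 24658, against 10556, 7253 and 8278. Its difference of -0.89 ± 0.44 (95% interval -1.88 to 0.10) was uncalled, and called without fish 2 (adjusted p = 0.0113) and with edgeR (0.0482). Of 4 aldose reductase genes, 2 were called lower and 0 higher (-0.89 to -0.20), with AsV changes of -0.03 to 1.63.

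In the list of pentose phosphate and NADPH supply genes, 3 of 29 were called lower, all transaldolase genes. That share of 10.3% was close to the 9.99% of all genes. In the other direction 1 was called higher (3.45%, against 14.2% of all genes). It was an isocitrate dehydrogenase-like gene, LOC106582376, whose product also supplies NADPH. The transaldolase gene taldo had 699, 578 and 808 in AsIII cultures, against 1261, 1069 and 1151, and 1379, 989.6 and 1383 in AsV cultures, against 1041, 1017 and 1161, a difference of -0.95 ± 0.18. For transaldolase-like LOC106587651 the difference was -0.94 ± 0.18, and its adjusted p was 0.0537 without fish 1. Under total scaling the list had 12 lower and 1 higher call, and without the AsV library of fish 3 it had 5 lower and 1 higher.

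Of 16 genes of the aryl hydrocarbon receptor list, 2 were called higher and 2 lower (2 and 3 under total scaling). Each direction held 12.5% of the list in the main fit, against 14.2% higher and 9.99% lower among all genes. Both cyp1a genes, the receptor's classical targets, responded lower to AsIII. The gene cyp1a (100136926) had 2566, 2760.2 and 2662 in AsIII cultures, against 4292, 6661 and 4285, and 10167, 12161 and 12871 in AsV cultures, against 7747, 6708 and 7617. The other, cyp1a (100136916), had 8559, 9639.8 and 9171 in AsIII cultures, against 15806, 18919.7 and 18776, and 22235, 39647 and 31155 in AsV cultures, against 22624, 26141 and 21821. Their differences were -1.57 ± 0.20 and -1.33 ± 0.17; in a fit with all doses of both compounds, neither was called (adjusted p = 0.0759 and 0.191). The receptor-induced polymerase genes tiparp and LOC106613254 were higher, by 2.15 ± 0.37 (adjusted p = 0.054 with all doses in the fit) and 1.54 ± 0.28.

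Genes of arsenic uptake, methylation and export were called higher about as often as all genes, at 16.1% against 14.2%. Of 31 genes, 5 were called higher and 1 lower. Under total scaling the counts were 4 and 4, and without the AsV library of fish 3 they were 7 and 0. In the main fit, 4 of the higher ones were purine nucleoside phosphorylase-like genes, whose product in mammals can act as an arsenate reductase in vitro. The most abundant, LOC106578021, had 49047, 36426 and 37971 in AsIII cultures, against 3910.1, 3879 and 2685, and 3723, 2782 and 2379 in AsV cultures, against 3679.9, 3632 and 2639, a difference of 3.74 ± 0.17. Of the 4 arsenite methyltransferase genes, none was called: the difference was -0.01 ± 0.26 for as3mt (-0.57 to 0.55), 1.21 ± 0.51 for LOC106568062 (0.13 to 2.29), -0.49 ± 0.18 for LOC106581028 (-0.88 to -0.11) and -0.28 ± 0.17 for LOC106588782 (-0.64 to 0.08). LOC106568062 had 180.8, 106.5 and 179.9 in AsIII cultures, against 49.9, 52.1 and 54.1, and 28.1, 27.9 and 48.2 in AsV cultures, against 26.9, 34.8 and 20.5; it was called higher without the AsV library of fish 3 (1.47, adjusted p = 0.0372) and with library weights (0.0312). LOC106581028 was called lower with edgeR (0.0369), DESeq2 (0.0404) and total scaling (0.00255), and LOC106588782 with total scaling (0.0134). aqp9, the arsenite channel, had 170.98, 375 and 214 in AsIII cultures, against 96.9, 192.8 and 108.2, and 140.5, 160.1 and 132.3 in AsV cultures, against 112.4, 157.3 and 108.1; the difference was 0.70 ± 0.32 (adjusted p = 0.12), and a second copy, LOC106595412, was called lower (-0.45 ± 0.16, adjusted p = 0.049), a call lost when any 1 fish or the AsV library of fish 3 was left out (adjusted p of 0.114 to 0.167).

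Phosphate carriers, the route of arsenate, gave 2 higher and 0 lower limma calls among 13 genes, a share of 15.4% higher that is close to the 14.2% of all genes. The sodium-dependent transporter LOC106563198 had 5830.0, 6694 and 6660.0 in AsIII cultures, against 4009, 4907 and 4535, and 3502, 4951 and 4265 in AsV cultures, against 4084, 5028 and 5120.5, a difference of 0.68 ± 0.15 that was not called under total scaling (adjusted p = 0.0692), without fish 1 (0.0624) or with all doses in the fit (0.169). The exporter XPR1-like LOC106599164 differed by 1.02 ± 0.21. In the methionine cycle and 1-carbon list of 57 genes, which supplies methyl groups for arsenic methylation, 15 were higher and 6 lower (12 and 7 under total scaling). The main calls were 26.3% and 10.5% of that list, against 14.2% and 9.99% of all genes. The mitochondrial folate enzyme-like LOC106580352, a methylenetetrahydrofolate dehydrogenase, had 8517, 7626 and 7296 in AsIII cultures, against 484, 515 and 398, and 614, 349 and 463 in AsV cultures, against 472, 550.2 and 438, a difference of 4.14 ± 0.23. S-adenosylmethionine synthase 2-like LOC106580346 differed by 1.61 ± 0.18 and the betaine-homocysteine methyltransferase-like LOC106568115 by -1.13 ± 0.29. The calls of both were lost without the fish term (adjusted p = 0.0805 and 0.213), and that of LOC106568115 without fish 2 (0.118). Of 6 S-adenosylmethionine synthase genes, 3 were called higher and 0 lower (-0.20 to 1.61). The other of 2 betaine-homocysteine methyltransferase genes was not called (0.49).

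The metal list gave 0 higher and 8 lower calls among 56 genes with limma (1 and 6 without the AsV library of fish 3, 0 and 17 under total scaling). The lower calls were 14.3% of the list, against 9.99% of all genes, and neither metallothionein gene was called. Metallothionein B (LOC100136581), a metal-binding protein, had 1861, 1668 and 5587 in AsIII cultures, against 2331, 1360.3 and 4731, and 4781, 1730.3 and 5384 in AsV cultures, against 3049, 1509.8 and 3474. The spread between fish was wider than the change, and the difference of -0.42 ± 0.33 had a 95% interval of -1.14 to 0.30; that of metallothionein A (LOC100136589) was -0.03 ± 0.42 (-0.94 to 0.88), an interval that holds both signs. Zinc transporter ke4 differed by -0.95 ± 0.20 (adjusted p = 0.0524 without fish 1).

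Cholesterol genes responded higher to AsIII while other lipid genes were mixed. Of 40 cholesterol synthesis and uptake genes, 27 responded higher and 4 lower (21 and 5 under total scaling). Their median was 1.10 against 0.09 over all genes. In the main fit 67.5% of the list were higher and 10% lower, against 14.2% and 9.99% of all genes. Hydroxymethylglutaryl-CoA synthase-like LOC106571543, an early enzyme of the pathway, had 49735, 40582 and 62104 in AsIII cultures, against 8516, 9317 and 11661, and 5827, 8783 and 5286 in AsV cultures, against 7797, 7403 and 6872, a difference of 2.54 ± 0.27. Mevalonate kinase (mvk) differed by 2.31 ± 0.29, the reductase hmdh by 1.60 ± 0.16 and the regulator srebf2 by 1.48 ± 0.20. The 2 lowest members were the low-density lipoprotein receptor-like LOC106601326 and insig2, which restrains the pathway. Their differences were -1.68 ± 0.22 and -1.35 ± 0.21. LOC106601326 had 917, 1075 and 1088 in AsIII cultures, against 3902, 5005 and 3148. In AsV cultures it had 3091, 4313 and 2218, against 3756, 3805 and 3608. Of 4 genes named for that receptor, 2 were called lower and 0 higher (-1.68 to 0.88). The other of 2 insulin-induced gene 2 copies was not called (0.14). In fatty acid and triglyceride synthesis (53 genes), 5 were higher and 10 lower (4 and 13 under total scaling). In the main fit that was 9.43% and 18.9% of the list, against 14.2% and 9.99% of all genes. Among the lower genes was diacylglycerol acyltransferase 2-like LOC106567948, the last step to triglyceride. It had 1411, 1795 and 2726 in AsIII cultures, against 5852, 6976 and 5809. In AsV cultures it had 6078, 9888 and 11672, against 4733, 7115 and 9826.

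Hepatocyte products gave 12 higher and 6 lower calls of 60, or 5 and 13 under total scaling, so that the direction of the list rests on the scaling. In the main fit 20% of the list were higher and 10% lower, against 14.2% and 9.99% of all genes. The egg-yolk precursor vitellogenin (LOC100136426), which male liver makes under estrogen, had 19707, 22333 and 121479 in AsIII cultures, against 276465, 309271 and 717197, and 154534, 334301 and 645338 in AsV cultures, against 334714, 302148 and 704817. Each AsIII culture was below the control of its fish, and fish 3 was higher than the others in every group. The difference was -3.02 ± 0.47 (adjusted p = 0.0029, 0.123 without the fish term and 0.0589 with DESeq2). The other of 2 tested vitellogenin genes was not called, with a difference of 0.12. Apolipoprotein Eb-like LOC106577506, a lipid carrier, had 3619.9, 3309.7 and 2562 in AsIII cultures, against 18073, 19407 and 8571. In AsV cultures it had 25326, 12634 and 13661, against 22311, 17056 and 12849, and its difference was -2.15 ± 0.27. Of 3 apolipoprotein Eb genes, 1 was called lower and 0 higher (-2.15 to -0.10). Albumin alb1 averaged 762400 in AsIII cultures and 501500 in controls, with a difference of 0.68 ± 0.14. The acute phase and inflammation list of 94 had 35 higher and 6 lower, with a median of 0.91 (25 and 13 under total scaling). Of this list, 37.2% were higher and 6.38% lower in the main fit, against 14.2% and 9.99% of all genes. The AP-1-like copies of this list, LOC106584280 and LOC106613963, immediate early transcription factors, differed by 4.88 ± 0.20 and 4.90 ± 0.21. Tissue factor-like LOC106568893, the starter of clotting, differed by 7.43 ± 1.08 (5.62, 5.22 and 11.44 in fish 1, 2 and 3). Without the AsV library of fish 3 that difference was 6.08, and the AsV change was 0.84 in place of -0.51. The NF-kappa-B inhibitor alpha-like LOC106603353 differed by -2.69 ± 0.42. Of the 6 copies of that inhibitor, 1 more was called, LOC106611175, which was higher (1.54 ± 0.44).

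**Figure D4:**
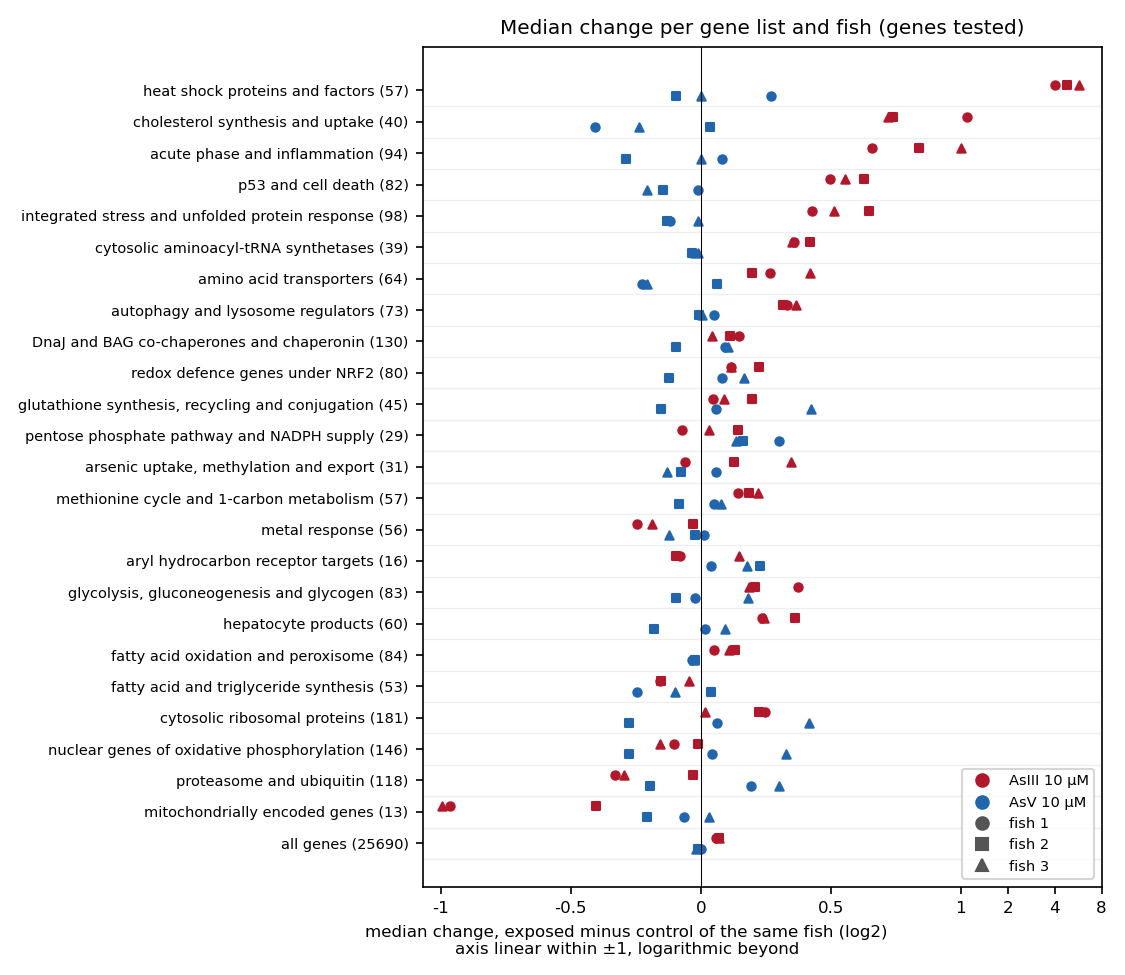
Median log2 change of the tested genes of 24 lists and of all genes, per fish, AsIII in red above AsV in blue. Red points lie beyond the blue points in all 3 fish for the heat shock, cholesterol, inflammation, cell death and integrated stress lists, and below them for mitochondrially encoded genes.

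Most messenger RNAs of the mitochondrial genome responded lower to AsIII. Together they made up 1.52, 2.34 and 1.81% of reads in AsIII cultures, against 2.76, 3.09 and 2.61% in their controls, and 2.10, 2.61 and 2.66% in AsV cultures, against 2.24, 2.72 and 2.73% in theirs (fish 1, 2 and 3 in each). The difference of responses was -1.09, -0.63 and -0.72 percentage points, a mean of -0.81 ± 0.24 (SD, n = 3), and an exact, two-sided sign permutation test over the 3 fish gave p = 0.25, the lowest it can give. Of the 13 genes, 9 were called lower and 0 higher with limma (6 lower without the AsV library of fish 3). The lower calls were 69.2% of the list, against 9.99% of all genes. They were the complex I subunits ND1 to ND6 and ND4L, and COX2 and COX3 of cytochrome oxidase. ND1 had 4734, 6454 and 5060.3 in AsIII cultures, against 14614, 13751 and 13792, and 13011, 11468 and 13307 in AsV cultures, against 12055, 13152 and 13009, a difference of -1.37 ± 0.17. COX1, CYTB and ATP6 were not called, with differences of 0.05 ± 0.14 (95% interval -0.25 to 0.36), -0.11 ± 0.15 (-0.43 to 0.21) and 0.26 ± 0.17 (-0.10 to 0.61).

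Nuclear genes of oxidative phosphorylation (146) had 3 higher and 12 lower calls, and 0 and 53 under total scaling. The main calls were 2.06% and 8.22% of the list, against 14.2% and 9.99% of all genes. Cytosolic ribosomal proteins (181) had 1 call in each direction. Each was 0.55% of the list, against 14.2% higher and 9.99% lower among all genes. The ribosomal median change in AsV cultures was 0.06, -0.28 and 0.41 in fish 1, 2 and 3. In AsIII cultures it was 0.25, 0.23 and 0.02. The sign for AsV differed between fish 2 and the others, as it did for oxidative phosphorylation and the proteasome list, and the part of this in the AsV result was not tested. For 92.8% of the ribosomal genes the 95% interval of the difference lay within 1 log2 unit of 0.

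The lists not described so far added calls in both directions. Carbohydrate metabolism (83 tested) had 19 higher and 10 lower (10 and 16 under total scaling), fatty acid oxidation (84) 9 and 6 (2 and 14), matrix and cytoskeleton (186) 45 and 5 (29 and 16), and cell cycle (62) 10 and 1 (5 and 4). In that order, 22.9, 10.7, 24.2 and 16.1% of each list were called higher in the main fit, against 14.2% of all genes. The lower calls were 12.05, 7.14, 2.69 and 1.61%, against 9.99% of all genes. The connective tissue growth factor-like LOC106572617 was among the highest of the matrix list, with a difference of 5.91 ± 0.58. Of 4 connective tissue growth factor genes, 3 were called higher and 0 lower (-0.45 to 5.91). The fructose-bisphosphate aldolase B-like LOC106604855, a liver enzyme of sugar breakdown, was lower, with a difference of -2.65 ± 0.47. It had 8.41, 31.5 and 24.3 in AsIII cultures, against 138.1, 181.8 and 191.98. In AsV cultures it had 94, 186.3 and 137.00, against 220.1, 180.8 and 156.6. The other of 2 aldolase B genes was not called (-0.25).

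Beyond the lists, the 12 highest differences among genes with a mean of 100 or more in some group and a product name were led by heat shock genes, and included the transcription factor sox11, the tetratricopeptide repeat protein 25-like LOC106601019 and the ferric-chelate reductase 1-like LOC106578055. sox11 had 702, 770.2 and 782 in AsIII cultures, against 3.84, 9.14 and 2.12, and 0, 15.7 and 0 in AsV cultures, against 3.17, 5.22 and 9.32. LOC106601019 had 14973, 12154 and 11121 in AsIII cultures, against 63.3, 51.2 and 10.6, and 118.9, 27 and 7.56 in AsV cultures, against 40.4, 28.7 and 16.8. LOC106578055 had 474, 582.3 and 452 in AsIII cultures and was at 0 in all other 9 libraries, which makes it at least 171.4-fold higher in AsIII cultures than the floor of 3 reads per library; edgeR and DESeq2 did not call it.

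The 12 lowest differences held Wnt-9a-like LOC106599874, a signalling ligand, the Krueppel-like factor 15 gene LOC106583637, a liver metabolic transcription factor, the Cdc42 effector 3-like LOC106576800, the sphingosine 1-phosphate receptor 2-like LOC106607212 and the long-chain fatty acid-CoA ligase 1-like LOC106612015, which activates fatty acids. LOC106576800 had 26.6, 36.8 and 52.3 in AsIII cultures, against 556, 596 and 503, and 539, 535 and 543 in AsV cultures, against 629, 446 and 538. LOC106599874 had 33.6, 21 and 72.9, against 515, 543 and 779, and 377, 708 and 844, against 680.2, 668 and 952, in the same order. Their differences were -3.87 ± 0.30 and -3.66 ± 0.35, and those of LOC106583637, LOC106607212 and LOC106612015 were -3.08 ± 0.47, -3.22 ± 0.24 and -3.26 ± 0.38; that of LOC106612015 was not called in a fit with all doses (adjusted p = 0.21).

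Most genes were left uncalled, which does not show that the compounds act alike. The 95% interval of the difference lay within 1 log2 unit of 0 for 8264 genes (32.2%), and for 8045 of the 14587 genes (55.2%) with means of 100 or more in all 4 groups. 11733 uncalled genes had an interval that reached beyond 1 log2 unit. The interval lay above 1 for 1193 genes and below -1 for 267, so that for these a difference of less than 2-fold was outside the interval.

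Marker lists of other cell types were summed in the same way. The sums are shares of the normalized total, which was larger in AsIII libraries, while the calls compare normalized counts without that division. The leukocyte list of 11 genes summed to 0.00208 to 0.00319% of the normalized total in AsIII cultures, against 0.00336 to 0.00432% in their controls, with 2 calls in each direction, and 0.00305 to 0.00422% in AsV cultures, against 0.00334 to 0.00423% in theirs. Without the fish term it had 0 higher calls and 1 lower. One higher call, immunoglobulin lambda-like LOC106592986, was at 0 outside the AsIII cultures and passed the filter through them alone. That call was lost with edgeR, with DESeq2 (adjusted p = 0.411) and when any 1 fish was left out (0.117 to 0.198). The erythroid list summed to 0.000103 to 0.000507% in AsIII cultures, against 0.000279 to 0.00111% in controls, with 0 calls of 8 tested by limma. The stellate list summed to 0.00199 to 0.00228% in AsIII cultures, below all other libraries, against 0.00261 to 0.00321% in their controls, and 0.00267 to 0.00343% in AsV cultures, against 0.00304 to 0.00309% in theirs. On the scale of the calls, the median change of its members was 0.77 for AsIII and -0.40 for AsV. One of its 2 higher calls, collagen alpha-1(I)-like LOC106600852, had an AsV change of -2.65 ± 0.84 and an uncalled AsIII change of 1.26 ± 0.84 (adjusted p = 0.25), and the call was lost without fish 1 (0.258), without fish 2 (0.0541), without the fish term (0.0842) and with all doses in the fit (0.0653). Of the stellate, endothelial and biliary lists, 2 of 7, 1 of 6 and 1 of 8 genes were called higher and 0, 0 and 1 lower. The higher calls were 28.6, 16.7 and 12.5% of these lists, against 14.2% of all genes, of which 9.99% were called lower. In the leukocyte list each direction held 18.2%. No marker in these lists was at 0 in all 12 libraries, and the part of such cells in the results was not tested.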

How the data were processed

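RNA-seq of the 12 cultures was deposited as 1 table of the authors' normalized signal, read counts divided by a size factor per library. Per the submitters' processing notes, HISAT2, featureCounts (Subread) and DESeq2 1.40.2 were used; no build or strand setting is named (not given in the sources used here). Values were whole reads times a constant (100% within 0.01 reads), so reads were recovered for edgeR 4.0.16 and DESeq2 1.42.0 as alternatives.

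Values of at least 10 in at least 3 of 12 libraries were kept, and log2(value + 1) was fitted with limma 3.58.1 (R 4.3.3) with 4 groups and fish as a block, with Benjamini-Hochberg adjustment over all 25690 genes, a threshold of 0.05, and errors given as SE. Folds on this scale understate changes of low genes. Libraries of 1 fish come from the same animal. Their deviations from the group means correlated at 0.29 on average (lowest 0.20, 18 pairs), against -0.14 between fish (36 pairs). Deviations from a mean of 3 fish sum to 0, so the between-fish value follows largely from the same-fish one and is no separate evidence. No pair of libraries in a group matched within sampling noise (lowest chi-square 25.6 per gene).

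Named genes were the 12 highest and 12 lowest differences with a product name, the 2 highest and 2 lowest called members per list, and fixed genes; others named for their role were chosen after their values were seen. Members and lists were chosen with earlier results of these data known. The script was tested on simulated data.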

Additional observations from a re-analysis of the deposited data

How the results depend on the processing

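The count of genes whose responses differed was 6210 and stayed within 1.5 times of that in the alternatives tried, other than these: 3757 with no replicate block, 2824 with all AsIII and AsV doses of fish 1 to 3 in the fit, 2721 without fish 1 and 3840 without fish 2. Leaving out 1 fish gave 2721 to 5028, the highest without fish 3. The fish pair the libraries by design. With all doses 2031 calls were higher and 793 lower, and without fish 1 the numbers were 1876 and 845. Library total scaling gave 2212 higher and 5204 lower. For AsIII against its control, all doses gave 6660 genes and leaving out 1 fish 5845 to 9215. For AsV, DESeq2 gave 19 genes, library weights 9 and leaving out 1 fish 0 to 2. For AsIII control against AsV control, library weights gave 1. For AsIII-exposed against AsV-exposed cultures, leaving out 1 fish gave 7097 to 9883. The causes were not tested. Library weights and the fit without the AsV library of fish 3 were chosen after seeing the data; that fit gave 6350 differing genes, 11511 for AsIII and 10148 between exposed cultures. Of the named genes, 78 kept their call or lack of one in every one of 13 alternatives and 0 reversed; the fewest kept it with all doses (114) and with no replicate block (118). With 3 fish, the median half-width of the 95% interval was 0.70 on the log2 scale, and 0.49 for genes with means of 100 or more in all groups, which limits the differences that can be detected.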
